A study of Mus musculus with 6 samples.

Results

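Carbonic anhydrases were described in differentiating mouse osteoblasts treated with NU7441 or with its solvent. The family members followed were Car2, Car3, Car4, Car5b, Car6, Car8, Car9, Car12, Car13 and Car14, and each was represented by the probe set annotated to its symbol alone with the highest mean over the 6 arrays. Such a probe set existed for 9 of the 10, out of 22180 genes measured in this way, and Car14 had only a probe set shared with Aph1a. The family was selected on measured values, because the Car3 signal was higher and the Car9 signal lower with NU7441 on these arrays, so the differences between NU7441 and DMSO are given for every member as descriptions with no test.

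The cells were MC3T3-E1, a single pre-osteoblast line derived from mouse calvaria. All 6 cultures were taken to confluence and then kept in medium with β-glycerophosphate at 10 mM and ascorbic acid at 50 µg/ml, which drives osteoblast differentiation, until total RNA of whole cells was collected at day 14. In 3 samples the medium also held NU7441 at 1 µM, an inhibitor of DNA-PKcs, the catalytic subunit of the DNA-dependent protein kinase, and in the other 3 it held DMSO. The series concerns phosphorylation of the transcriptional coregulator alphaNAC by this kinase, and every sample was of the same line with no genetic change given. Replicate numbers 1 to 3 occur in both groups, and no label says whether replicates were separate cultures, so the spread between them may be technical.

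Carbonic anhydrases are zinc enzymes that turn carbon dioxide and water into bicarbonate and a proton, and back. Family members differ mainly in where they sit: in the cytosol, in mitochondria, in secretions or on the cell surface, where the catalytic part faces outwards and sets pH around the cell. In bone the best known is Car2, which supplies the protons that osteoclasts use to dissolve mineral, and Car9 is a widely used marker of low oxygen because its gene is a direct target of hypoxia-inducible factor (HIF).

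The promoters of the 3 members that later paragraphs turn on and that the RefSeq promoter table held are shown here, so that their motif content can be read beside the array values. Each line is the 250 bases before a start that the table gives in GRCm38.p6, 5′ to 3′ on the strand of the gene, for Car9 chr4:43506776-43507025, plus strand, for Car12 chr9:66713436-66713685, plus strand and for Car6 chr4:150201136-150201385, minus strand. Capitals mark the hypoxia response core, ACGTG or GCGTG on either strand, and the AP-1 motif TGACTCA on either strand.
Car9: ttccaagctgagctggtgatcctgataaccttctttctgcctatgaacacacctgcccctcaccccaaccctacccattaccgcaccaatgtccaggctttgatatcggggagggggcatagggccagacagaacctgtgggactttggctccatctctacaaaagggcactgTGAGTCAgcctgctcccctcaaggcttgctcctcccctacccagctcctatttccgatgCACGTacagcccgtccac
Car12: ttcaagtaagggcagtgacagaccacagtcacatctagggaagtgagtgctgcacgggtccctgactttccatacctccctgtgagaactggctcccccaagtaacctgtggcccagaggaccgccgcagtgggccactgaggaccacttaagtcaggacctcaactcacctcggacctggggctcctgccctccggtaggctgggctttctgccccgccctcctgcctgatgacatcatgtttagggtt
Car6: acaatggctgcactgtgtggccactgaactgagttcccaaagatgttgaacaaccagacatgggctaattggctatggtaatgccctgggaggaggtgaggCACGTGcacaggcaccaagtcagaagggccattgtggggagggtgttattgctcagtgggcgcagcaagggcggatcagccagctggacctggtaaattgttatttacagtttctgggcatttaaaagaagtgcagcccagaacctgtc
The Car9 window held 1 hypoxia core, CACGT, from base -18 to base -14 counted from the start, and 1 AP-1 motif, TGAGTCA, from base -77 to base -71. The Car12 window held 0 of either motif. The start used for Car12 lies inside the span of the gene, as does that for Car14, so those windows are not the bases before the gene's outermost end. The Car6 window held CACGTG, which reads as the core on both strands and was therefore counted as 2 overlapping matches between base -149 and base -144. Of 32851 promoter windows of this length, 38.6% held a hypoxia core and 4.46% the AP-1 motif. A match describes letters and not a bound site. The table held 6 of the 10 members, and Car2, Car3, Car8 and Car13 were not among them. Car5b had 5 cores, Car14 had 1 and Car4 had 0.

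Over all genes limma called 0 of 22180 between NU7441 and DMSO once p-values were adjusted by Benjamini-Hochberg (0%), with 0.598 as the smallest of them. Before adjustment 1506 genes, or 6.79%, were under 0.05, with 3.49% of all genes higher and 3.3% lower. None of the members was called, and 1 of 9, Car3, was under 0.05 before adjustment, in the higher direction. With same-numbered samples as a block, an intensity trend and a robust prior, limma called 100 genes, Car3 among them. Because this contrast chose the family, nothing is read from these counts. Car2, Car3, Car4 and Car12 had a positive difference and the other 5 a negative one, of which Car5b and Car13 turned positive with quantile normalization. The size of the difference was under 0.1 log2 units in 4 of the 9 members, and their median size was 0.23, against 0.08 over all genes. Array medians lay between 6.38 and 6.42, lower quartiles between 5.11 and 5.16 and upper quartiles between 8.26 and 8.32. With 3 arrays a group, precision is limited throughout.

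**Figure D1:**
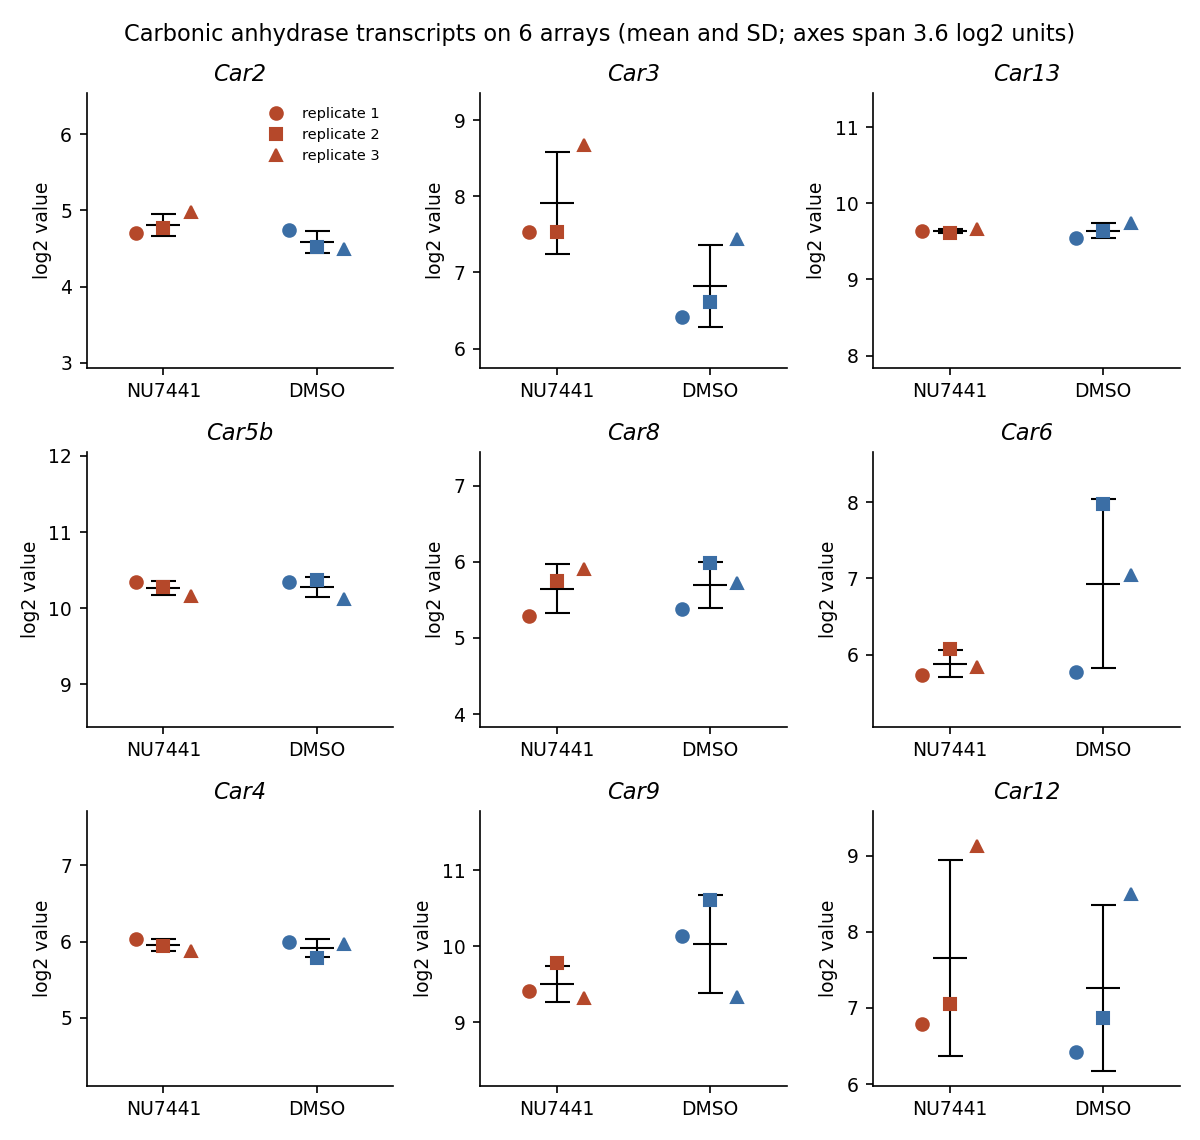
Log2 value of each of the 9 measured carbonic anhydrases on the 3 NU7441 and the 3 DMSO arrays, with the marker shape giving the replicate number and bars the mean and SD of the group. Replicate 3 is the highest of its group for Car3 and Car12 under both treatments, and DMSO 2 is the highest array for Car6 and Car9.

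The members differed widely in how much they varied between replicates. The residual SD within groups was 1.19 log2 units for Car12, and 0 of the 22180 genes had a larger one. It was 0.79 for Car6, exceeded by 16 genes, 0.61 for Car3, exceeded by 49, and 0.49 for Car9, exceeded by 138. Car8 had 0.31, also above the 95th percentile over all genes of 0.29. The median gene had 0.11, and Car2, Car4, Car5b and Car13 lay between 0.07 and 0.14. A choice by large differences between groups of 3 arrays favours genes with a large spread, so these ranks are not independent of how the family was chosen.

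**Figure D2:**
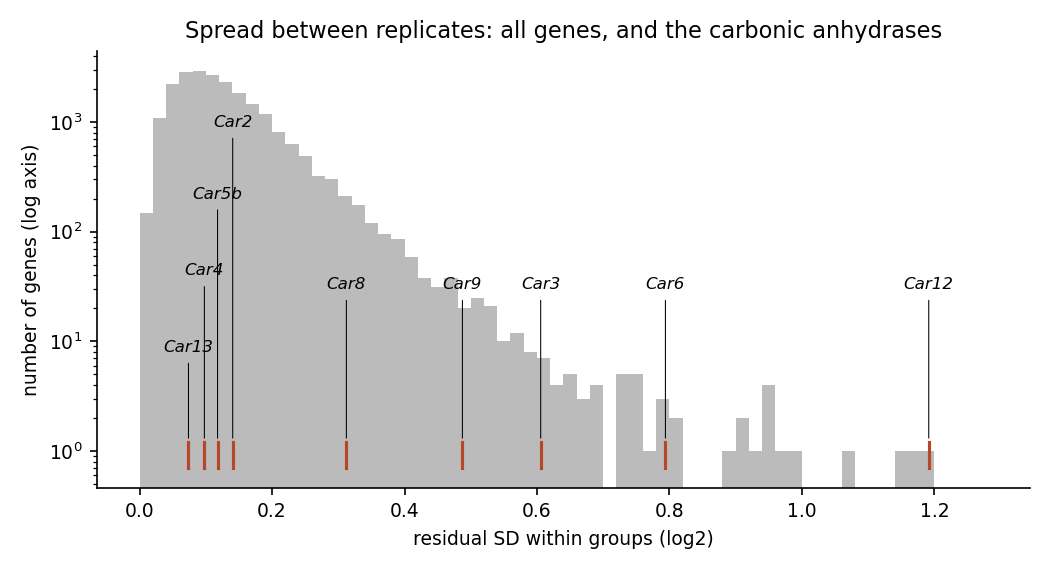
Number of genes (log axis) by residual SD within the NU7441 and DMSO groups, in log2 units, with vertical marks at the carbonic anhydrases. Car12 at 1.19 is at the far right end, Car6, Car3 and Car9 lie in the upper tail, and Car2, Car4, Car5b and Car13 lie in the bulk of genes.

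Among the cytosolic enzymes, Car3 had the largest difference of the family. Car3 is a form with low hydratase activity that is abundant in adipocytes and slow skeletal muscle. It was at 7.53, 7.52 and 8.68 in NU7441 1 to 3, against 6.42, 6.61 and 7.44 in DMSO 1 to 3, on the log2 scale. The lowest NU7441 array lay above the highest DMSO array by a small margin, and in both groups replicate 3 stood above the others. The means were 7.91 ± 0.66 with NU7441 and 6.82 ± 0.54 with DMSO (SD, n = 3 each), a log2 difference of 1.09 (SE 0.37) or 2.13-fold. In cultured cells a change in the share of cells that express a gene and a change in RNA per cell cannot be told apart. Over all genes, 6.13% had all 3 NU7441 values above all 3 DMSO values.

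Taken by replicate number, Car3 was higher with NU7441 by 1.11, 0.92 and 1.24 in the pairs numbered 1 to 3. The difference was thus similar in every pair although the level within a group varied by over 1 log2 unit, and its SE with the replicate number as a block was 0.08. The pairing was taken from these same arrays, and Car3 was chosen on this contrast. The pair differences and the smaller SE are therefore descriptions and no independent support. A positive difference in 3 of 3 pairs was found in 16% of all genes. Car3 was the sixth largest difference in size among all genes, of which 9 reached a size of 1. A second Car3 probe set read 5.26, 5.65 and 6.49 with NU7441, against 4.84, 5.12 and 5.71 with DMSO, a difference of 0.58 (SE 0.34) with overlapping groups. Leaving out NU7441 3 moved the difference of the first probe set to 0.71.

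**Figure D3:**
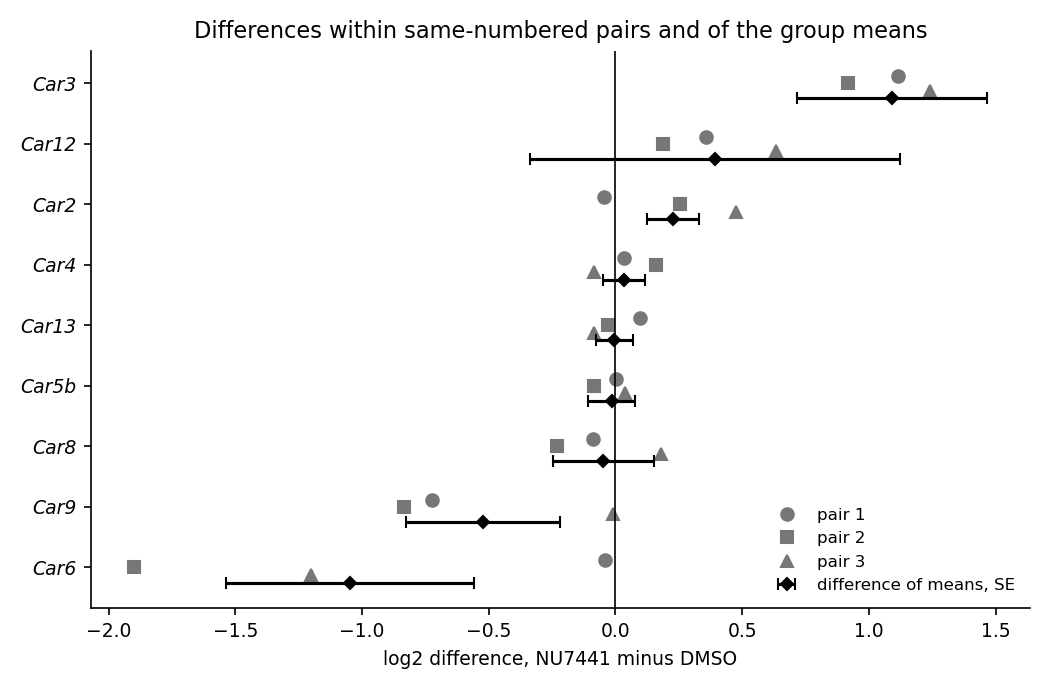
Log2 difference, NU7441 minus DMSO, of each carbonic anhydrase, with grey markers for the 3 same-numbered pairs and black diamonds for the difference of the group means with its SE from the fit without pairs. The pairs of Car3 lie between 0.92 and 1.24, while those of Car6 run from -1.90 to -0.04 and those of Car9 from -0.84 to -0.01.

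Car2 and Car13, the other cytosolic members, neighbour Car3 on mouse chromosome 3 in the order Car13, Car1, Car3 and Car2. Car13 was at 9.64, 9.60 and 9.66 with NU7441, against 9.54, 9.64 and 9.74 with DMSO. Its groups overlapped and its difference was -0.01 (SE 0.07), on a level above the upper quartile of the arrays. Car2, the highly active form of red cells, kidney and osteoclasts, was at 4.70, 4.77 and 4.97 with NU7441, against 4.74, 4.51 and 4.50 with DMSO. The groups overlapped through DMSO 1, and the difference was 0.23 (SE 0.10). All 6 Car2 values lay below the lower quartiles of the arrays. No measure of background was analysed here, and a difference at such a low signal has an uncertain size. Car1, which lies between Car13 and Car3 and is the abundant form of red cells, was likewise below the lower quartiles and differed by 0.02 (SE 0.08).

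Markers of cells in which Car2 and Car3 are abundant were followed on the same arrays. Of 13 measured adipocyte genes, 6 were higher and 7 lower with NU7441, their median difference being -0.01, against 0.00 over all genes. Their summed log2 level was between 83.2 and 84.5 in NU7441 arrays and between 84.7 and 85.5 in DMSO arrays. Members went both ways. Fabp4, a fatty acid carrier, was at 4.87 ± 0.26 with NU7441 and 5.87 ± 0.32 with DMSO, a difference of -0.99 (SE 0.19). Retn, the adipocyte hormone resistin, was at 5.75 ± 0.08 with NU7441 and 5.47 ± 0.12 with DMSO, a difference of 0.28 (SE 0.08). Pnpla2 differed by -0.26 (SE 0.11) and Dgat2 by -0.21 (SE 0.08). At an unadjusted limma p under 0.05, 3 of the 13 were lower and 1 was higher. This was 30.8% of the list, against 6.79% of all genes. Of the 16 skeletal muscle genes, 10 were higher and 6 lower, with a median of 0.02. Their sums were between 97.7 and 98.1 in NU7441 arrays and between 96.6 and 97.9 in DMSO arrays. Of the 12 osteoclast genes, 5 were higher and 7 lower, with a median of -0.08, and sums between 86.8 and 88.6 in NU7441 arrays and between 88.5 and 88.9 in DMSO arrays. Of 10 erythroid genes listed only 5 were measured, 3 higher and 2 lower, with a median of 0.01. Their sums were between 34.3 and 34.6 in NU7441 arrays and between 34.0 and 34.8 in DMSO arrays. At an unadjusted limma p under 0.05 were 6.25% of the muscle genes, 0% of the osteoclast genes and 20% of the 5 erythroid genes. As limma called 0 of all genes, none of these lists had a called member. The part of these cells in the Car3 and Car2 values was not tested.

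Car12, a surface enzyme with a membrane-spanning segment that is common in secretory epithelia, followed the replicate number more than the treatment. It was at 6.78, 7.06 and 9.13 in NU7441 1 to 3, against 6.43, 6.87 and 8.50 in DMSO 1 to 3. Replicate 3 exceeded the mean of replicates 1 and 2 by 2.21 with NU7441 and by 1.85 with DMSO. The groups overlapped, and the difference of the means was 0.39 (SE 0.73). Within pairs it was 0.36, 0.19 and 0.63, with an SE of 0.10 under the replicate block. Without NU7441 3 the unpaired difference was -0.34, without DMSO 1 it was -0.03, and without DMSO 3 it was 1.01, so single arrays decided its size and sign in the fit without pairs.

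Car3 and Car12 deviated together from their group means, with a Pearson r of 0.996 over the 6 arrays. Deviations within a group sum to 0, so these are fewer than 6 free points, and the coefficient is a description that rests on the replicate 3 arrays. Among 4350 genes compared, 5.06% had an r above 0.9 with Car3. The 5 closest to Car3 were Ltbp2, Ccdc88c, Bambi, Sox6 and Sgk3, at r from 0.996 to 0.998. The same search for Car12, added after the values were seen, gave Dlk2, Bambi, Ltbp2, Kcnk6 and Sgk3, and 5.1% of genes above 0.9. Bambi, a decoy receptor of the TGF-beta family, was at 8.22, 8.29 and 9.37 with NU7441, against 7.87, 8.16 and 8.86 with DMSO. Ltbp2, a latent TGF-beta binding protein of the matrix, was at 8.94, 8.98 and 9.50 with NU7441, against 8.57, 8.62 and 9.02 with DMSO.

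Osteoblast markers were high on the same arrays. Of 12 listed, 10 were measured, all 10 lay above the array medians, and all 10 were higher with NU7441, with a median difference of 0.52. Over all genes, 11371 of 22180 were higher. Of the 10 markers 1, or 10%, was at an unadjusted p under 0.05, where 3.49% of all genes were higher at that level. Sizes were unlike. Named after their values were seen, Col1a1 and Col1a2 each differed by 0.04 (SE 0.06), and Dmp1 by 0.14 (SE 0.61). Dmp1 was lower with NU7441 in the pair numbered 3, by -0.73. In 8 of the 10 replicate 3 was the highest array of both groups. Alpl, the alkaline phosphatase of mineralising cells, was at 9.92 ± 0.33 with NU7441 and 9.38 ± 0.33 with DMSO, and Pth1r, the parathyroid hormone receptor, at 10.16 ± 0.59 with NU7441 and 9.35 ± 0.59 with DMSO (SD, n = 3 each). Against each gene's mean over the 6 arrays, the median of the list was -0.03, 0.10 and 0.67 in NU7441 1 to 3, against -0.50, -0.47 and 0.18 in DMSO 1 to 3. Its summed log2 level was between 104.4 and 111.5 with NU7441 and between 99.6 and 108.1 with DMSO. The part of this shift in the Car3 and Car12 values was not tested.

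**Figure D4:**
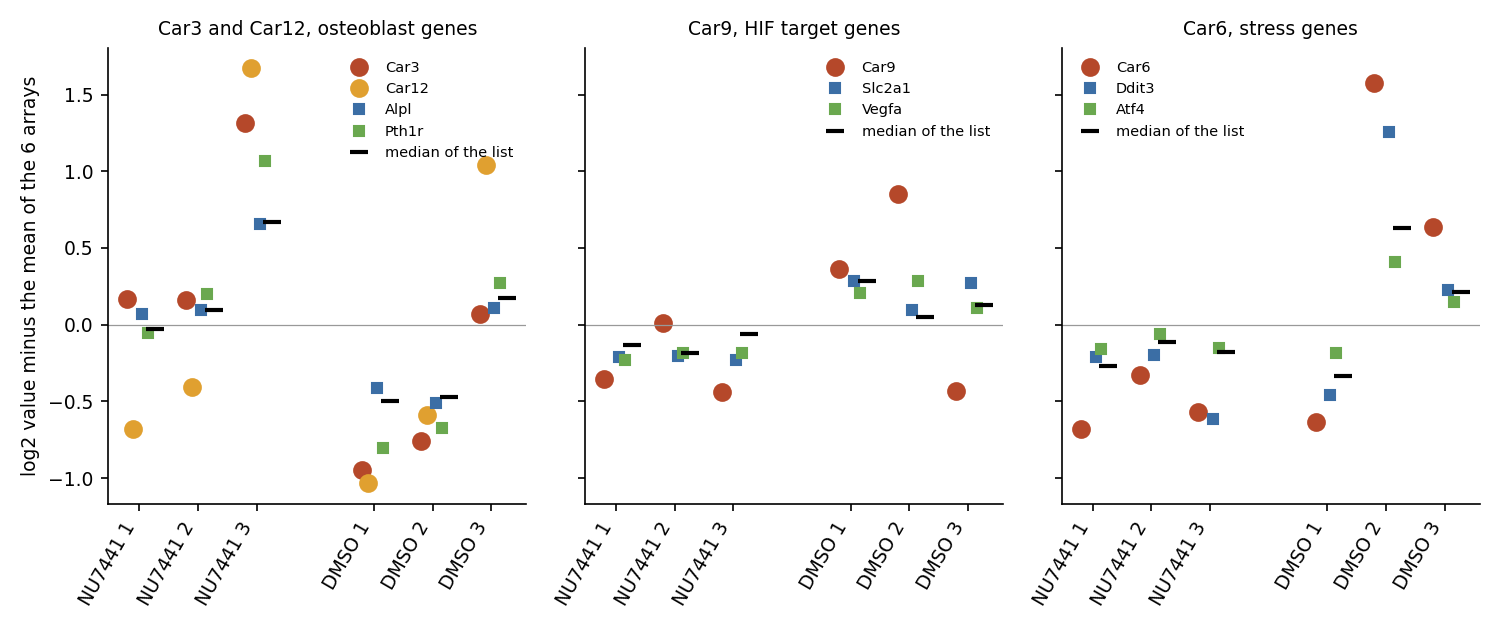
Log2 value minus the mean over the 6 arrays, for NU7441 1 to 3 and DMSO 1 to 3. The left panel shows Car3 and Car12 with 2 osteoblast genes, the middle panel Car9 with 2 HIF targets, the right panel Car6 with 2 stress genes, and black bars the median of each list. Car3, Car12 and the osteoblast genes drawn are highest in replicate 3 of each group, Car9 is low in DMSO 3 where Slc2a1 and Vegfa are not, and Car6 and Ddit3 are highest in DMSO 2.

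Car9, the surface enzyme that acidifies the surroundings of hypoxic cells, was at 9.41, 9.78 and 9.32 in NU7441 1 to 3, against 10.13, 10.61 and 9.33 in DMSO 1 to 3. The NU7441 arrays lay below DMSO 1 and DMSO 2, and DMSO 3 lay among them, so the groups overlapped. The means were 9.50 ± 0.24 with NU7441 and 10.03 ± 0.65 with DMSO (SD, n = 3 each), a difference of -0.52 (SE 0.30), or a ratio of 0.696. Over all genes, 6.64% had all 3 NU7441 values below all 3 DMSO values. Within pairs Car9 differed by -0.72, -0.84 and -0.01, so the pair numbered 3 contributed next to nothing. Leaving out DMSO 2 moved the difference to -0.23, and leaving out DMSO 3 to -0.87. The second Car9 probe set was at 6.86, 7.04 and 6.96 with NU7441, against 7.13, 7.52 and 6.77 with DMSO, a difference of -0.19 (SE 0.18).

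Other HIF targets were set beside Car9 from a list that earlier results of these arrays had already shown to be mostly lower. Of 21 measured targets, 20 were lower and 1 higher with NU7441, with a median difference of -0.31, and 10, or 47.6%, were lower at an unadjusted p under 0.05, where 3.3% of all genes were. The 1 higher target was Pfkfb4, named after its values were seen, at a difference of 0.13 (SE 0.07) with its groups apart. Slc16a3, a known HIF target counted below with the transporters, was also higher, so the split depends on which targets were listed. None of the 21 was called over all genes. Slc2a1, the glucose transporter GLUT1, was at 11.39 ± 0.01 with NU7441 and 11.83 ± 0.11 with DMSO, and Vegfa, an angiogenic growth factor, differed by -0.40 (SE 0.07). Egln1, an oxygen-sensing hydroxylase, differed by -0.42 (SE 0.08) and P4ha2, a collagen prolyl hydroxylase subunit, by -0.39 (SE 0.09).

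In the pairs numbered 1 to 3 the median difference of the 21 targets was -0.44, -0.19 and -0.22, and 18, 17 and 17 of them were lower. Car9 had its smallest difference in the pair numbered 3. Of the 21 targets, 9 likewise had their least negative difference there, 10 had it in the pair numbered 2 and 2 in the pair numbered 1. Pdk1, which restrains entry of pyruvate into mitochondria, differed by -0.44, -0.40 and -0.10 in the pairs numbered 1 to 3, and Slc2a1 by -0.50, -0.30 and -0.50. Pdk1 was picked as an example after its values were seen. The genes encoding HIF and its regulators gave 4 higher and 4 lower of 8, and Hif1a, the oxygen-regulated subunit, differed by -0.16 (SE 0.08). By deviations from the group means, the 5 genes closest to Car9 were Chrac1, Prmt9, Mmadhc, Nudt17 and Zfp619, at r from 0.994 to 0.997 over the 6 arrays, and 4.57% of 4350 genes exceeded 0.9.

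Car6, the secreted form known from saliva, had the second largest difference of the family. It was at 5.73, 6.08 and 5.84 in NU7441 1 to 3, against 5.77, 7.98 and 7.04 in DMSO 1 to 3. The NU7441 arrays were close together, DMSO 1 lay with them, and DMSO 2 and DMSO 3 stood above. The means were 5.88 ± 0.18 with NU7441 and 6.93 ± 1.11 with DMSO (SD, n = 3 each), a difference of -1.05 (SE 0.49), or a ratio of 0.483. Within pairs the difference was -0.04, -1.90 and -1.20. It was -0.52 without DMSO 2, -0.99 without DMSO 3 and -1.63 without DMSO 1.

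In mouse cells a form of Car6 is known to be induced by endoplasmic reticulum stress through the transcription factor CHOP, the product of Ddit3. Whether that form is the secreted one, or starts at the window shown above, was not examined. Which form gives the signal of this probe set was not examined either. A list of stress genes was therefore set beside Car6, after the values had been seen. Ddit3 was at 9.67, 9.68 and 9.26 with NU7441, against 9.42, 11.13 and 10.11 with DMSO, so DMSO 2 and DMSO 3 were the highest arrays and DMSO 1 was not, as for Car6. Trib3, a pseudokinase induced by CHOP, was at 7.59, 7.75 and 7.83 with NU7441, against 7.18, 9.18 and 8.58 with DMSO. Of 24 measured stress genes, 24 were lower with NU7441, with a median difference of -0.32. Over all genes, 10809 of 22180 were lower. At an unadjusted limma p under 0.05 were 0 of the 24, against 6.79% of all genes. DMSO 2 was the highest array for 21 of the 24. In the pair numbered 1, 18 of the 24 were higher with NU7441 and the median difference was 0.12, against -0.66 and -0.32 in the pairs numbered 2 and 3. In the pair numbered 3, 23 of the 24 were lower, but by unlike amounts. There Trib3 differed by -0.75, against -0.18 for Dnajb9 and -0.03 for Hspa5. The median of the list, against each gene's mean over all arrays, was 0.63 in DMSO 2 and 0.21 in DMSO 3. It was -0.34 in DMSO 1, and -0.27, -0.12 and -0.18 in NU7441 1 to 3. DMSO 2 and DMSO 3 were therefore the highest arrays for the list median, as for Car6.

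The genes whose deviations were closest to those of Car6, found by the same rule as for Car3 and Car9, were Atf4, Cox18, Cars, Tmem50b and Eif2b2, at r from 0.997 to 0.999, and 9.91% of 4350 genes exceeded 0.9. Atf4, the transcription factor upstream of Ddit3 in the stress response, was at 8.96, 9.06 and 8.97 with NU7441, against 8.93, 9.53 and 9.26 with DMSO. Its own difference was -0.25 (SE 0.14). The part of these stress genes in the Car6 difference was not tested.

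The remaining members had differences of 0.05 log2 units or less in size. Car5b, the mitochondrial form that feeds bicarbonate to biosynthetic carboxylases, was at 10.35, 10.28 and 10.16 with NU7441, against 10.35, 10.37 and 10.12 with DMSO. The groups overlapped, the difference was -0.02 (SE 0.09), and replicate 3 was the lowest array of both groups. Car4, held on the cell surface by a lipid anchor, was at 6.03, 5.94 and 5.88 with NU7441, against 6.00, 5.78 and 5.96 with DMSO, and differed by 0.04 (SE 0.08). Car8, a related protein without the enzyme activity that binds an inositol trisphosphate receptor, was at 5.29, 5.75 and 5.90 with NU7441, against 5.38, 5.98 and 5.72 with DMSO. Its difference was -0.05 (SE 0.20), and replicate 1 was the lowest array of both groups. Car4 and Car8 lay between the lower quartile and the median of the arrays.

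For Car14, a surface form like Car9 and Car12, the probe set shared with Aph1a was at 6.42, 6.45 and 6.21 with NU7441, against 6.23, 6.33 and 6.39 with DMSO. Which of the genes gives this signal cannot be told apart. The 5 other carbonic anhydrases with a probe set of their own, Car1, Car7, Car10, Car11 and Car15, differed by -0.11 to 0.05. Of these, 2 were higher, 3 lower and 0 at an unadjusted limma p under 0.05, against 6.79% of all genes.

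Transporters that carry the bicarbonate, protons and lactate handled around these enzymes showed no common direction. Of 29 measured, 14 were higher and 15 lower with NU7441, the median difference was -0.02, and 2, or 6.9%, had an unadjusted p under 0.05, close to the 6.79% of all genes. Slc16a3, the lactate and proton exporter MCT4 and itself a known HIF target, was at 6.51 ± 0.03 with NU7441 and 6.28 ± 0.06 with DMSO, a difference of 0.23 (SE 0.06). Slc9a9, a sodium-proton exchanger of endosomes, was at 9.61 ± 0.16 with NU7441 and 9.95 ± 0.16 with DMSO, a difference of -0.34 (SE 0.11). Slc9a3 differed by 0.16 (SE 0.07) and Slc4a9 by 0.16 (SE 0.08).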

How the data were processed

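The authors deposited 1 log2 value per probe set and array for 6 Affymetrix arrays of biotin-labelled RNA. The log2 scale was read from the range of the deposited values, and how the authors summarised and normalized probes is not given in the sources used here. Groups came from the treatment label and replicate numbers from the titles.

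Of 41345 probe sets, 23521 had 1 gene symbol in the platform annotation, 1814 several and 16010 none here. For each gene the one with the highest mean was kept, giving 22180 genes, with no filter on level. The Entrez number of 23328 probe sets was in the reference table, and 0 symbols changed. limma 3.58.1 in R 4.3.3 (lmFit, eBayes, two-sided, Benjamini-Hochberg over all genes) was fitted with group as the only term and tested on simulated data. Differences are NU7441 minus DMSO with the moderated SE.

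Same-numbered samples deviated together, with correlations of 0.149, 0.169 and 0.339 over genes, against -0.25 to 0.09 for different numbers, and so were taken as pairs. This pairing comes from the data. Deviations within a group sum to 0, so the correlations for same and different numbers are not independent of each other. For NU7441 1 the correlation was 0.149 with DMSO 1 and 0.09 with DMSO 2, so its pairing is the least clear. The members, lists and tests were chosen with earlier results of these data known. The rule named all members, the 5 genes most like Car3 and Car9 in deviations from group means (genes above the median level with a residual SD of at least 0.1), and up to 4 members per list by smallest p. The stress list, the genes named from it other than its 4 of smallest p, the genes like Car6 and Car12 and the second probe sets were added after values were seen. Protein sequences were not analysed here. Promoter sequences are from RefSeq. Figures used matplotlib 3.10.9.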

Additional observations from a re-analysis of the deposited data

How the results depend on the processing

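Limma called 0 genes under all but 1 of the 16 alternatives. The replicate block combined with an intensity trend and robust prior called 100 genes, Car3 among them and none of the other 8 members. Since Car3 was a reason to choose the family, that call is no independent support. The replicate block alone called 0 genes with a smallest adjusted p of 0.229 in limma, and changed no call. Each replicate number occurs in both groups, so a block cannot move a difference of means. The Car3 difference of 1.09 and the Car9 difference of -0.52 were therefore fixed in advance under it. Centring each array on its median turned the split at an unadjusted p under 0.05 to 549 higher and 931 lower, against 775 and 731 without it, and moved the Car3 difference to 1.07 and the Car9 difference to -0.54. Leaving out 1 array gave Car3 differences between 0.71 and 1.40, Car9 between -0.87 and -0.23 and Car6 between -1.63 and -0.52, with no change of sign. Array weights gave 0.91 for Car3, -0.37 for Car9 and 0.05 for Car12, and the mean of the probe sets 0.84 for Car3 and -0.35 for Car9. The signs of the small differences of Car4, Car5b, Car8 and Car13 turned when some single arrays were left out, and those of Car5b and Car13 also under other settings. Keeping the upper 75 percent of genes by level left 8 of the 9 members and the upper 50 percent left 5. Signal over background was not analysed here, which limits Car2 most.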
